A study of Mus musculus with 13 samples.

Results

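A set of 10 genes of the cytosolic heat shock response, the unfolded protein response (UPR) and the integrated stress response (ISR) was read in hematopoietic stem and progenitor cells (HSPCs) of leukemic NPmut mice and of 3 comparison genotypes. They are *Hspa1a*, *Hspa1b*, *Dnajb1*, *Hsph1*, *Hspa8*, *Hsp90aa1*, *Hsp90ab1*, *Hspa5*, *Ddit3* and *Atf4*. They were listed by name, as a check on stress or handling beside the immediate-early genes, with earlier results of these data known. All 10 are among the 54838 genes of the count table, and all 10 were among the 17795 genes that passed the filter on low counts. RNA-Seq was performed on RNA from 50000 sorted Lin- cKit+ bone marrow (BM) cells of each of 13 mice. The series asks how mutant p53 works with oncogenic Nras in acute myeloid leukemia.

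All 13 mice carried Mx1-Cre, a Cre recombinase driven by an interferon-inducible promoter. The 3 control mice carried Mx1-Cre only. The 3 p53mut mice carried in addition the *p53* R172H/+ allele, and the 3 NrasG12D mice the *Nras* G12D/+ allele, which 1 label field spells G21D. The 4 NPmut mice carried both alleles and were moribund. Control, p53mut and NrasG12D mice were injected intraperitoneally with 100 µg of pI-pC, a double-stranded RNA that induces interferon, 3 times every other day from about 6 weeks of age. The labels give no treatment for NPmut mice. Genotype, absence of injections and terminal disease therefore cannot be told apart in the NPmut group.

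In the heat shock response, misfolded proteins in the cytosol release the transcription factor HSF1, which binds heat shock elements and turns on HSP70 (*Hspa1a*, *Hspa1b*), its HSP40 partner (*Dnajb1*) and the HSP110 exchange factor (*Hsph1*). In the UPR, unfolded proteins in the endoplasmic reticulum (ER) activate the sensors ATF6, IRE1 and PERK, which raise ER chaperones such as BiP (*Hspa5*). PERK is also a kinase of the ISR, in which phosphorylated eIF2α favors translation of ATF4 and, downstream, transcription of *Ddit3*, which encodes CHOP. ATF4 is controlled largely at translation, which RNA levels do not show.

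The promoters of 7 of the 10 members were in the RefSeq table of promoter sequences (GRCm38.p6, 250 bases before to 50 bases after a start site), those of *Hspa8*, *Hsp90aa1* and *Hsp90ab1* not among them. The stretches below, written in the direction of transcription, show 1 motif found in each of 5 members. In *Hspa1a* (chr17:34972197-34972286, minus strand), *Hspa1b* (chr17:34959279-34959368, minus strand) and *Hsph1* (chr5:149636351-149636380, minus strand), capitals mark a pair of inverted heat shock units. In *Hspa5* (chr2:34772020-34772049, plus strand) they mark an ER stress element, and in *Ddit3* (chr10:127290543-127290602, plus strand) an AP-1 motif.
Hspa1a: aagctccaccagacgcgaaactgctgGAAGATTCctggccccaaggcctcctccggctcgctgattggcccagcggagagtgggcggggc
Hspa1b: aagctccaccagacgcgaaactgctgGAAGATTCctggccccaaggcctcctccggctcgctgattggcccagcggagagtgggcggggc
Hsph1: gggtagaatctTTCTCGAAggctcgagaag
Hspa5: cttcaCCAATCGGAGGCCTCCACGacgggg
Ddit3: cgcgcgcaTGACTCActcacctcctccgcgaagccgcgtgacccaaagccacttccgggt

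The *Hspa1a* and *Hspa1b* stretches are identical, and their promoters differed at 4 of 300 bases. The *Hsph1* and *Hspa5* stretches lie before the RefSeq start site. In GENCODE M21 the *Hspa5* stretch lies inside the first exon of a longer transcript. So does the *Hsph1* stretch, except for its first bases, which lie before the annotated gene. The *Ddit3* stretch overlaps *Gm4189* on the opposite strand. Each motif was searched on both strands in all 32851 promoters of the table. GAANNTTC was in 7.86% of all promoters and in *Hspa1a*, *Hspa1b* and *Hsph1*. TTCNNGAA was in 8.52% of all promoters and in *Hsph1*. The heat shock element of 3 units, which overlaps both, was in 0.603% of all promoters and, after the start site, in *Hsph1*. The ER stress element was in 0.119% of all promoters and in *Hspa5*. TGANTCA was in 7.81% of all promoters and in *Ddit3* and *Hspa5*. CCAAT, part of the ER stress element, was in 37.4% of all promoters and in all 7 members. The letters TGATGNAA (ATF4-C/EBP) and TGACGTCA (CRE), in 3.97% and 1.79% of all promoters, were in none of these 7 windows.

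Library totals ranged from 12576174 to 29124022 counts. Background reads were gauged by 1733 genes of olfactory and vomeronasal receptors, which held 107 to 198 CPM (counts scaled to the library total) in control mice, 62 to 144 in p53mut mice, 39.2 to 46.5 in NrasG12D mice and 18.2 to 59.8 in NPmut mice. At the same rate per base, such reads would make up at most 1.89% of the counts of any member in any group. HSPC markers were present in every mouse, and *Kit* ranged from 288 to 449.9 CPM in NPmut mice and from 505 to 568 in control mice. The summed level of 10 monocyte markers was 287 to 596 CPM in NPmut mice and 132 to 147 in control mice, and 5 of the 9 tested rose. The summed level of 10 erythroid markers was 265 to 523 CPM in NPmut mice and 518 to 759.8 in control mice, and 2 of 10 fell. The summed level of 9 plasma cell markers was 154 to 313 CPM in NPmut mice and 85.3 to 105 in control mice. Of the 7 tested, 1 rose (*Ighm*) and 1 fell (*Igkc*), with a median log2 fold change of -0.04. The part of these cell types in the results that follow was not tested. In bulk RNA, fewer cells of a type and less RNA per cell cannot be told apart.

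Per length (RPKM), the constitutive chaperones stood far above the inducible HSP70 genes. In control mice the level of *Hsp90ab1*, the constitutive cytosolic HSP90, was 1561 ± 146 RPKM (SD, n = 3). Next came *Hspa5* at 192 ± 9.99 RPKM, *Hsp90aa1*, the more inducible HSP90, at 155 ± 27.6 RPKM, and *Hspa8*, the constitutive HSC70, at 138 ± 6.41 RPKM. The control ranges of *Hspa5* (183 to 203 RPKM) and *Hsp90aa1* (129 to 184) overlapped at their ends, and that of *Hspa8* (131 to 144) lay inside that of *Hsp90aa1*, so that the order of these neighbors was not resolved. *Atf4* was at 65.6 ± 8.13 RPKM, *Hsph1* at 23.8 ± 8.51, *Dnajb1* at 18.7 ± 0.809 and *Ddit3* at 6.37 ± 1.2, with overlap between *Hsph1* and *Dnajb1*. *Hspa1b* and *Hspa1a* were lowest, at 2.7 ± 0.505 and 1.42 ± 0.633 RPKM.

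In NPmut versus control HSPCs, *Hsph1* fell and *Atf4* rose, while the other 8 members did not pass the test (adjusted *P* under 0.05, edgeR's quasi-likelihood test with Benjamini-Hochberg adjustment over all 17795 genes, used throughout). These 2 of 10 stand beside 10.9% of all genes called in this comparison. The median log2 fold change of the members was 0.03, and that of all genes 0.01. At an unadjusted *P* under 0.05, 5 of 10 members passed, beside 25.6% of all genes. All NPmut mice lay below all control mice for 3 of 10 members (*Hspa1a*, *Hspa1b* and *Hsph1*), beside 11.5% of all genes, and for none of the 10 did all NPmut mice lie above, beside 10.4% of all genes.

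**Figure D1:**
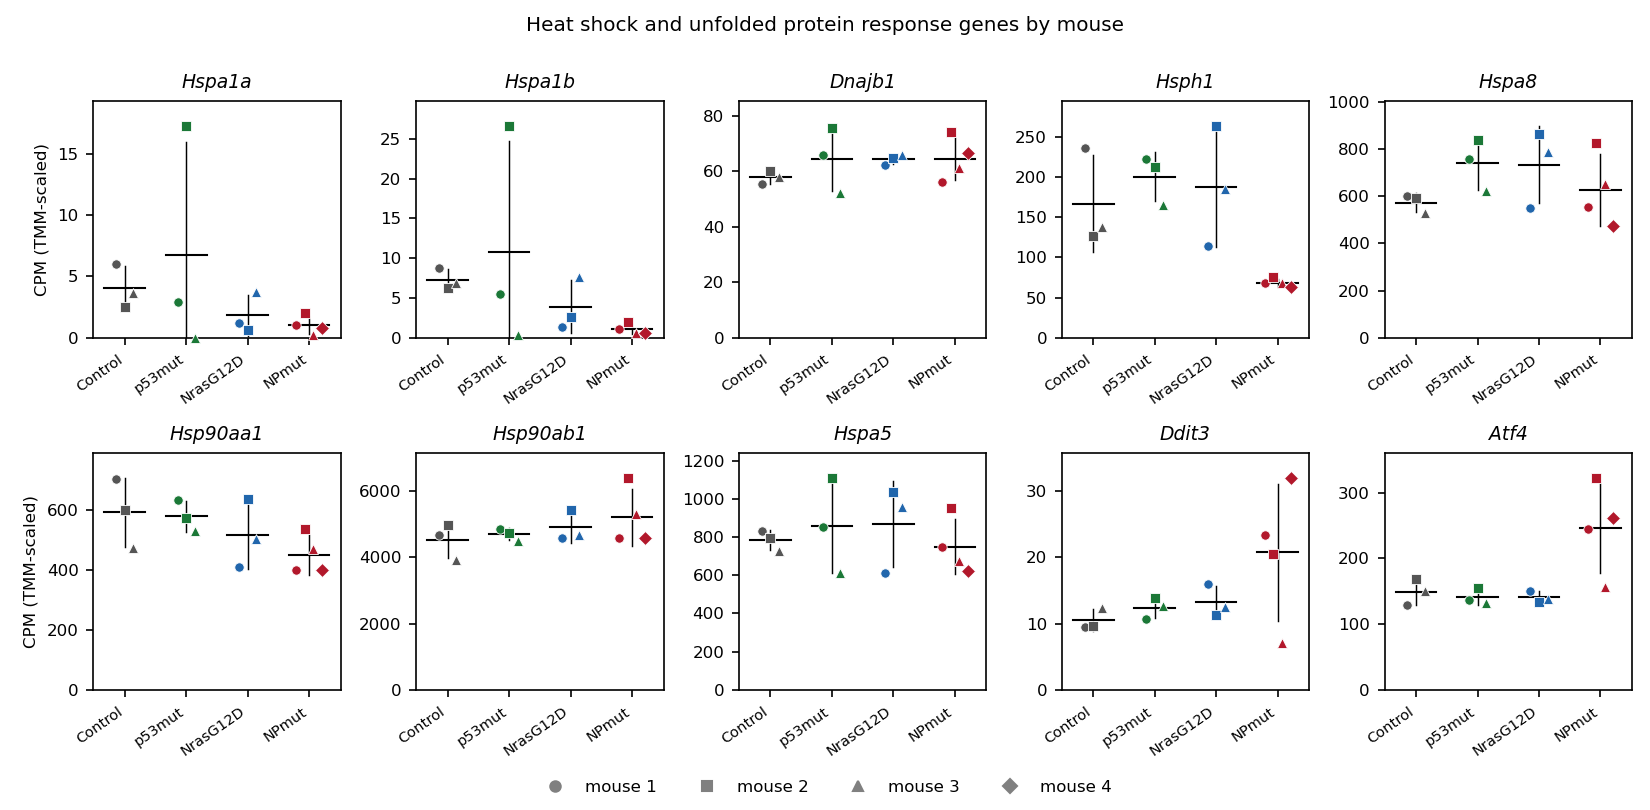
Level of each of the 10 genes in TMM-scaled CPM (vertical axis, from 0) in every mouse of the 4 genotypes, with horizontal bars for group means, vertical bars for SD cut at 0, and symbols for the mouse number. *Hsph1* in NPmut mice sits between 63.4 and 75.3 CPM, below every other mouse, and p53mut mouse 2 stands highest for *Hspa1a* and *Hspa1b*.

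*Hsph1* (chr5:149614287-149636376, minus strand), whose product recharges HSP70 by exchange of its nucleotide, had the lowest adjusted *P* of the 10 members. Its levels in control mice 1 to 3 were 237, 127 and 138 CPM. In p53mut mice they were 223, 213 and 166 CPM, and in NrasG12D mice 114, 264 and 186 CPM. In NPmut mice 1 to 4 they were 68.6, 75.3, 67.6 and 63.4 CPM. Every NPmut mouse was below each of the 9 other mice, and the 4 NPmut mice were closer together than the mice of each other group. Against control mice the log2 fold change was -1.28 (SE 0.251, adjusted *P* = 0.00609), a 2.43-fold lower level, which made *Hsph1* the only member with an at least 2-fold change among those called, beside 6.01% of all genes. Control mouse 1 stood above the other 2, and without it the log2 fold change was -0.93 (adjusted *P* = 0.0327). With background reads as a covariate, which itself differed between the groups, it was -1.19 (adjusted *P* = 0.173).

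*Hspa1a* (chr17:34969190-34972156) and *Hspa1b*, neighboring copies of inducible HSP70, were low and uneven. *Hspa1a* was at 6.03, 2.47 and 3.67 CPM in control mice, 2.88, 17.3 and 0 in p53mut mice, 1.16, 0.59 and 3.69 in NrasG12D mice, and 1.06, 2.01, 0.214 and 0.763 in NPmut mice. *Hspa1b* was at 8.79, 6.18 and 6.93 CPM in control mice, 5.54, 26.6 and 0.347 in p53mut mice, 1.39, 2.62 and 7.64 in NrasG12D mice, and 1.06, 1.97, 0.59 and 0.594 in NPmut mice. In both genes every NPmut mouse was below every control mouse but overlapped the NrasG12D and p53mut mice. In both genes p53mut mouse 2 was the highest and p53mut mouse 3 the lowest of the 13. Against control mice, NPmut mice had log2 fold changes of -1.95 for *Hspa1a* (SE 1.14, adjusted *P* = 0.315) and -2.72 for *Hspa1b* (SE 0.986, adjusted *P* = 0.105). For *Hspa1b* the adjusted *P* was 0.0427 by DESeq2, 0.00938 in a fit to NPmut and control libraries alone, 0.037 without p53mut mouse 2, 0.0187 without p53mut mouse 3 and 0.204 with the replicate number as a block. With background reads as a covariate the values came to -0.32 for *Hspa1b* (adjusted *P* = 0.938) and 0.20 for *Hspa1a* (adjusted *P* = 0.97). The transcripts share 58.8% (*Hspa1a*) and 62.3% (*Hspa1b*) of their 50-base windows, so that the split of reads between them is uncertain.

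Counts of both copies were therefore summed. The sum was 14.8, 8.65 and 10.6 CPM in control mice, 8.41, 43.9 and 0.347 in p53mut mice, 2.55, 3.21 and 11.3 in NrasG12D mice, and 2.12, 3.97, 0.804 and 1.36 in NPmut mice. Their counts were 15 to 103 per NPmut library and 140 to 258 per control library. The highest NPmut value was below the lowest control value, and the log2 fold change was -2.41 (adjusted *P* = 0.177).

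The HSP40 partner and the abundant cytosolic chaperones did not pass the test in NPmut versus control mice. *Dnajb1* was at 55.2, 60.1 and 57.9 CPM in control mice and at 56.1, 73.9, 61.2 and 66.4 in NPmut mice (log2 fold change 0.16, SE 0.125, adjusted *P* = 0.464). *Hspa8* was at 600.1, 593 and 528 CPM in control mice and at 553, 828, 652 and 473 in NPmut mice (0.13, SE 0.188, adjusted *P* = 0.722). The NPmut mice lay on both sides of the control mice for *Hspa8*. *Hsp90ab1* was at 4674, 4984 and 3927 CPM in control mice and at 4574, 6388, 5296 and 4581 in NPmut mice (0.20, SE 0.143, adjusted *P* = 0.408). *Hsp90aa1* was at 701, 598 and 474 CPM in control mice and at 398, 536, 468 and 398 in NPmut mice (-0.39, SE 0.165, adjusted *P* = 0.149). NPmut mice 1, 3 and 4 were below all control mice for *Hsp90aa1*, and mouse 2 was not. A library scaling by totals gave *Hsp90aa1* an adjusted *P* of 0.0451 in a setting that moved the median of all genes to -0.11.

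The ER chaperone *Hspa5*, the classic target of the UPR and the carrier of the ER stress element printed above, did not stand out in NPmut mice. It was at 833, 795 and 726 CPM in control mice, 853, 1107 and 612 in p53mut mice, 611, 1036 and 958 in NrasG12D mice, and 749.9, 952, 674 and 623 in NPmut mice. The NPmut and control mice overlapped, and the log2 fold change was -0.07 (SE 0.21, adjusted *P* = 0.875). The highest level was that of p53mut mouse 2 and the lowest that of NrasG12D mouse 1.

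Of the transcription factors of the ISR, *Atf4* rose. It was at 129, 168 and 151 CPM in control mice, 137, 155 and 132 in p53mut mice, 151, 133 and 138 in NrasG12D mice, and 245, 322, 157 and 261 in NPmut mice. NPmut mice 1, 2 and 4 were above every other mouse, and NPmut mouse 3 was inside the control range. The log2 fold change against control mice was 0.72 (SE 0.182, adjusted *P* = 0.0201), a 1.65-fold higher level. The call was lost without control mouse 1 (0.64, adjusted *P* = 0.0852), without control mouse 3 (0.73, adjusted *P* = 0.0705), in a fit to NPmut and control libraries alone (0.73, adjusted *P* = 0.093), and with background reads as a covariate (0.69, adjusted *P* = 0.215).

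*Ddit3*, the gene of the proapoptotic factor CHOP, did not pass the test. It was at 9.43, 9.64 and 12.4 CPM in control mice, 10.7, 13.8 and 12.6 in p53mut mice, 15.9, 11.3 and 12.5 in NrasG12D mice, and 23.4, 20.5, 7.08 and 31.9 in NPmut mice. NPmut mice 1, 2 and 4 were above every other mouse, and NPmut mouse 3 was the lowest of the 13. Over all 4 NPmut mice the log2 fold change was 0.97 (SE 0.35, adjusted *P* = 0.0943). It passed without NPmut mouse 3 (adjusted *P* = 0.00152), by DESeq2 (0.97, adjusted *P* = 0.0372) and without a filter on low counts (1.00, adjusted *P* = 0.000102). It did not pass in a fit to NPmut and control libraries alone (0.98, adjusted *P* = 0.209) or with the replicate number as a block (0.63, adjusted *P* = 0.257). With background reads as a covariate its sign turned (-0.24, adjusted *P* = 0.814). *Ddit3* overlaps *Mars* on the opposite strand, and whether the counting used strand is not given in the sources used here.

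**Figure D2:**
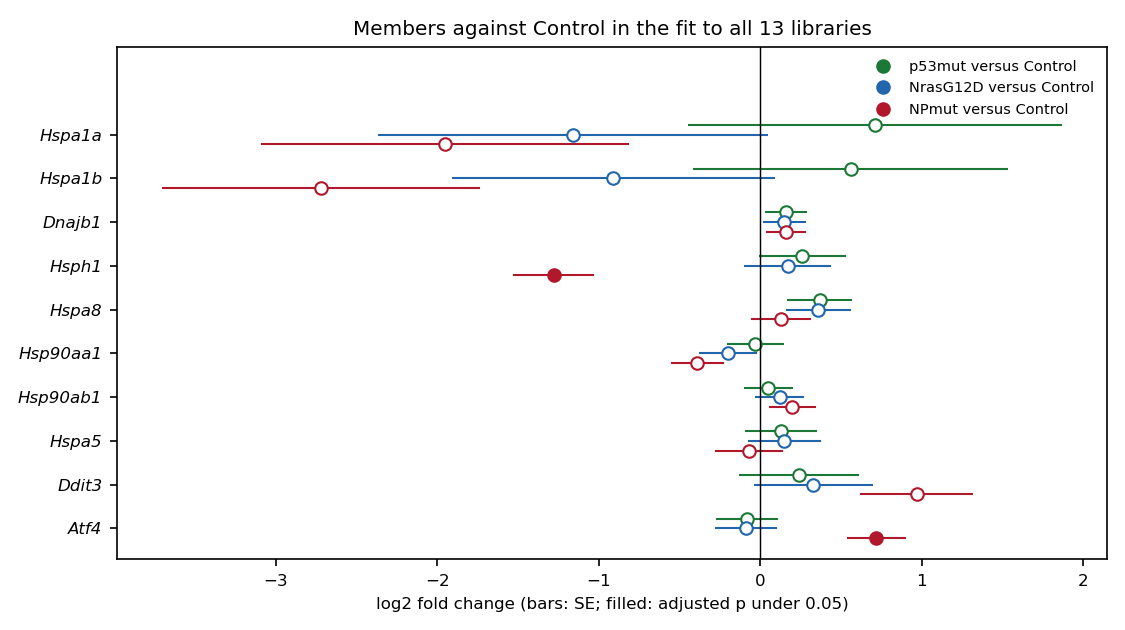
Log2 fold change of the 10 genes (rows) against control mice in p53mut, NrasG12D and NPmut mice (colors), with bars for SE and filled points for an adjusted *P* under 0.05. Only *Hsph1* (-1.28) and *Atf4* (0.72) in NPmut mice are filled.

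In p53mut versus control HSPCs, 0 of 10 members passed the test by edgeR or DESeq2, beside 0% of all genes by edgeR, and 0 of 10 passed at an unadjusted *P* under 0.05, beside 2.33% of all genes. The log2 fold changes ran from -0.08 for *Atf4* to 0.71 for *Hspa1a* (SE 1.16), the latter carried by p53mut mouse 2, without which it was -1.53. For *Hspa1b* it was 0.56 (SE 0.973) with that mouse and -1.33 without it. *Hspa8*, at 757, 841 and 621 CPM in p53mut mice, was above the control range in all 3 mice, and 1 of 10 members without overlap on the higher side stands beside 5.47% of all genes. The difference was 0.37 on the log2 scale (SE 0.201, adjusted *P* = 1). Control and p53mut mice of the same number deviated together from their group means only weakly, at correlations of 0.152 to 0.166. The labels tie the number to no litter or batch. With the number as a block in these libraries alone *Hspa8* passed (0.35, adjusted *P* = 0.0486), as 1 of 10 members, beside 0.336% of all genes. In that fit the values of *Hspa1a* and *Hspa1b* turned to -0.35 and -0.34. With the block in the fit to all libraries, 0 of all genes passed in this comparison.

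In NrasG12D versus control HSPCs, 0 of 10 members passed by edgeR or DESeq2, beside 0.00562% of all genes by edgeR, and 0 of 10 passed at an unadjusted *P* under 0.05, beside 9.23% of all genes. The log2 fold changes ran from -1.16 for *Hspa1a* (SE 1.21) to 0.36 for *Hspa8* (SE 0.201, adjusted *P* = 0.651). *Dnajb1*, at 62.2, 64.6 and 65.7 CPM, was above the control range in all 3 NrasG12D mice (0.15, SE 0.133, adjusted *P* = 0.805). This 1 of 10 without overlap on the higher side stands beside 10.9% of all genes.

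NPmut mice were also compared with each single mutant, in contrasts that share the NPmut mice with each other. Against NrasG12D mice, *Hsph1* fell (-1.45, SE 0.252, adjusted *P* = 0.00414) and *Atf4* rose (0.81, SE 0.182, adjusted *P* = 0.0132), 2 of 10 members beside 8.88% of all genes. Against p53mut mice, *Hsph1* fell (-1.54, SE 0.252, adjusted *P* = 0.00224) and *Atf4* rose (0.80, SE 0.182, adjusted *P* = 0.0122), 2 of 10 beside 9.95% of all genes. The *Atf4* call against NrasG12D mice was lost in the fit to those groups (adjusted *P* = 0.0715) and without NrasG12D mouse 2 (0.0632) or 3 (0.0504). Against p53mut mice it was lost in the fit to those groups (adjusted *P* = 0.0738), with background reads as a covariate (0.114) and without p53mut mouse 1 (0.058) or 3 (0.0734). In both contrasts all NPmut mice lay below the other group for *Hsph1* and above it for *Atf4*. On the lower side this was 1 of 10 members, beside 11.2% (NrasG12D) and 10.5% (p53mut) of all genes, and on the higher side 1 of 10, beside 9.34% and 9.10%. The largest value against p53mut mice was that of *Hspa1b* at -3.29 (SE 0.993, adjusted *P* = 0.0594), with p53mut mouse 3 below the NPmut range.

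The interaction (NPmut minus p53mut minus NrasG12D plus control on the log2 scale) asks whether the double mutant departs from the sum of the single-mutant differences. It was called for *Hsph1* (-1.71, SE 0.369, adjusted *P* = 0.0376), 1 of 10 members beside 1.74% of all genes. Leaving out a mouse lost that call in 10 of 13 fits, with values from -2.06 to -1.38. With the replicate number as a block it was -1.66 (adjusted *P* = 0.101). For *Atf4* the interaction was 0.89 (SE 0.264, adjusted *P* = 0.0997), and DESeq2 gave an adjusted *P* of 0.0355. For *Hspa8* it was -0.60 (SE 0.275, adjusted *P* = 0.303).

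The rest of each pathway was read through lists of named genes. Over 5 such lists, 160 genes outside the members were tested. In p53mut versus control mice 0 of them were called by edgeR or DESeq2, and 1 had an unadjusted *P* under 0.05. In NrasG12D versus control mice 0 were called by edgeR or DESeq2, and 10 had an unadjusted *P* under 0.05, 6.25% beside 9.23% of all genes. Of 42 other cytosolic chaperones and HSF1 targets tested in NPmut versus control mice, 1 rose and 2 fell, 7.14% of the list beside 10.9% of all genes, with a median log2 fold change of -0.04. *Hspa4l*, an HSP110 relative of *Hsph1*, fell (-0.70, SE 0.123, adjusted *P* = 0.00266), from 63.9 to 75.8 CPM in control mice to 37.2 to 49.5 in NPmut mice. *Dnajb4*, an HSP40, fell (-0.44, SE 0.132, adjusted *P* = 0.0447), and *Dnajb6*, another HSP40, rose (0.58, SE 0.135, adjusted *P* = 0.0136). The call of *Dnajb4* was lost in 12 of the 13 fits that left out a mouse. HSF1 itself (*Hsf1*) was at 0.02 (SE 0.145, adjusted *P* = 0.943) and *Hsf2* at 0.24 (SE 0.142, adjusted *P* = 0.311).

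Of 38 other ER chaperone and UPR genes, 6 rose and none fell in the same comparison, 15.8% of the list beside 10.9% of all genes, with a median of 0.12. Their names were *Atf6*, *Herpud1*, *Selenos*, *Txndc5*, *Wfs1* and *Xbp1*. *Txndc5*, a protein disulfide isomerase, rose by 0.74 (SE 0.182, adjusted *P* = 0.0183). *Wfs1*, wolframin of the ER membrane, rose by 1.08 (SE 0.29, adjusted *P* = 0.0271) from a low level of 2.65 to 3.28 CPM in control mice. *Herpud1*, a component of ER-associated degradation, rose by 0.66 (SE 0.18, adjusted *P* = 0.0284). *Xbp1*, whose messenger is spliced by IRE1, rose by 0.54 (SE 0.151, adjusted *P* = 0.0336), and *Atf6* by 0.41 (SE 0.121, adjusted *P* = 0.0425). IRE1 (*Ern1*) was at 0.09 (SE 0.252, adjusted *P* = 0.859). Against control mice, *Wfs1* was at 1.02 in NrasG12D mice (SE 0.306, adjusted *P* = 0.257), with all 3 above the control mice, and *Herpud1* was at 0.56 in NrasG12D mice (SE 0.19, adjusted *P* = 0.358) and 0.50 in p53mut mice (SE 0.19, adjusted *P* = 1). Between NPmut and NrasG12D mice *Wfs1* differed by 0.05 (SE 0.278) and *Herpud1* by 0.11 (SE 0.177). Of the 38 genes, *Txndc5* alone was called against NrasG12D mice, and *Txndc5* and *Atf6* against p53mut mice. *Xbp1* is also a plasma cell factor, and the plasma cell markers are given above. The count of 6 dropped to 0 when control mouse 1 or 3 was left out, to 1 for control mouse 2, to 2 for NPmut mouse 1 and to 3 for NPmut mouse 2. Calls over all genes also moved, to 6.42%, 6.28% and 4.41% without control mouse 1, 2 and 3. They were 8.2% without NPmut mouse 1 and 10.8% without NPmut mouse 2.

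Of 41 other ISR genes, 3 rose and 4 fell, 17.1% of the list beside 10.9% of all genes, with a median of 0.02. *Pycr1*, of proline synthesis, rose (1.32, SE 0.322, adjusted *P* = 0.0169), whereas *Aldh18a1*, of the same pathway, fell (-0.57, SE 0.11, adjusted *P* = 0.00497). *Asns*, asparagine synthetase and a well-known ATF4 target, fell (-1.19, SE 0.329, adjusted *P* = 0.0353), from 37.1, 62.2 and 57.3 CPM in control mice to 19.2, 12.1, 33.6 and 26.9 in NPmut mice. All NPmut mice were below all control mice for *Asns*, including the 3 with the highest *Atf4*, beside 11.5% of all genes on that side. In NrasG12D mice *Asns* was at 21.5 to 39.1 CPM (-0.67 against control mice, SE 0.354, adjusted *P* = 0.612). NPmut mice differed by -0.52 from NrasG12D mice (SE 0.331, adjusted *P* = 0.367) and by -1.20 from p53mut mice (SE 0.329, adjusted *P* = 0.0361). The *Asns* call against control mice was lost in 4 of the 13 fits that left out a mouse. *Vldlr*, a lipoprotein receptor, fell (-2.26, SE 0.46, adjusted *P* = 0.00765). *Cebpb*, a myeloid factor and partner of CHOP, rose (1.16, SE 0.322, adjusted *P* = 0.0366). Among the eIF2α kinases, PKR (*Eif2ak2*), an interferon-inducible gene, fell (-0.49, SE 0.123, adjusted *P* = 0.0197), while *Eif2ak1* (0.07, adjusted *P* = 0.696), *Eif2ak3* for PERK (0.26, adjusted *P* = 0.269) and *Eif2ak4* (-0.06, adjusted *P* = 0.806) did not pass. The count of 7 dropped to 4 when control mouse 1 or NPmut mouse 1 was left out and to 2 for control mouse 3. In these fits 6.42%, 8.2% and 4.41% of all genes were called, in the same order.

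*Atf3*, an ISR factor that is also induced as an immediate-early gene, rose (4.46, SE 1.28, adjusted *P* = 0.0449). It was at 0.517, 0.494 and 0.204 CPM in control mice, at most 0.737 in the single mutants, and 9.4, 13.5, 0.107 and 12.7 in NPmut mice. NPmut mouse 3 was below every control mouse, and the other 3 NPmut mice were above every other mouse. Its call was lost in 8 of the 13 fits that left out a mouse.

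The immediate-early genes, which turn on within minutes of stimulation or tissue handling, were the list with the most calls. Of 25 tested, 15 rose and none fell in NPmut versus control mice, 60% of the list beside 10.9% of all genes, with a median of 1.50. *Fos* was at 17.5, 16.9 and 24 CPM in control mice, 9.89, 37.4 and 8.92 in p53mut mice, 9.15, 14.4 and 7.51 in NrasG12D mice, and 186, 218, 14.6 and 392 in NPmut mice (3.38, SE 0.938, adjusted *P* = 0.0468). NPmut mice 1, 2 and 4 were far above every other mouse, and mouse 3 was below the control range. *Ier2* was at 30.6, 33 and 31.8 CPM in control mice and at 60.5, 79.9, 43.8 and 97.1 in NPmut mice (1.14, SE 0.225, adjusted *P* = 0.00554). *Junb* (1.48, adjusted *P* = 0.00442), *Maff* (2.80, adjusted *P* = 0.0065) and *Dusp2* (1.07, adjusted *P* = 0.00889) also rose. *Egr1* was at 14.9, 16.1 and 16.6 CPM in control mice and at 76.8, 31.2, 17.5 and 157 in NPmut mice (2.15, adjusted *P* = 0.0503). *Jun* was at 148, 113 and 117 CPM in control mice and at 239.6, 228, 86.2 and 464 in NPmut mice (1.02, SE 0.451, adjusted *P* = 0.184). The count of 15 dropped to 7 when control mouse 1 or 2 was left out, to 4 for control mouse 3 and to 9 for NPmut mouse 2. It was 8 with the replicate number as a block and 0 with background reads as a covariate. Of all genes, 6.42%, 6.28% and 4.41% were called without control mouse 1, 2 and 3, and 10.8% without NPmut mouse 2. The block gave 15.5% and the covariate 4.19%.

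**Figure D3:**
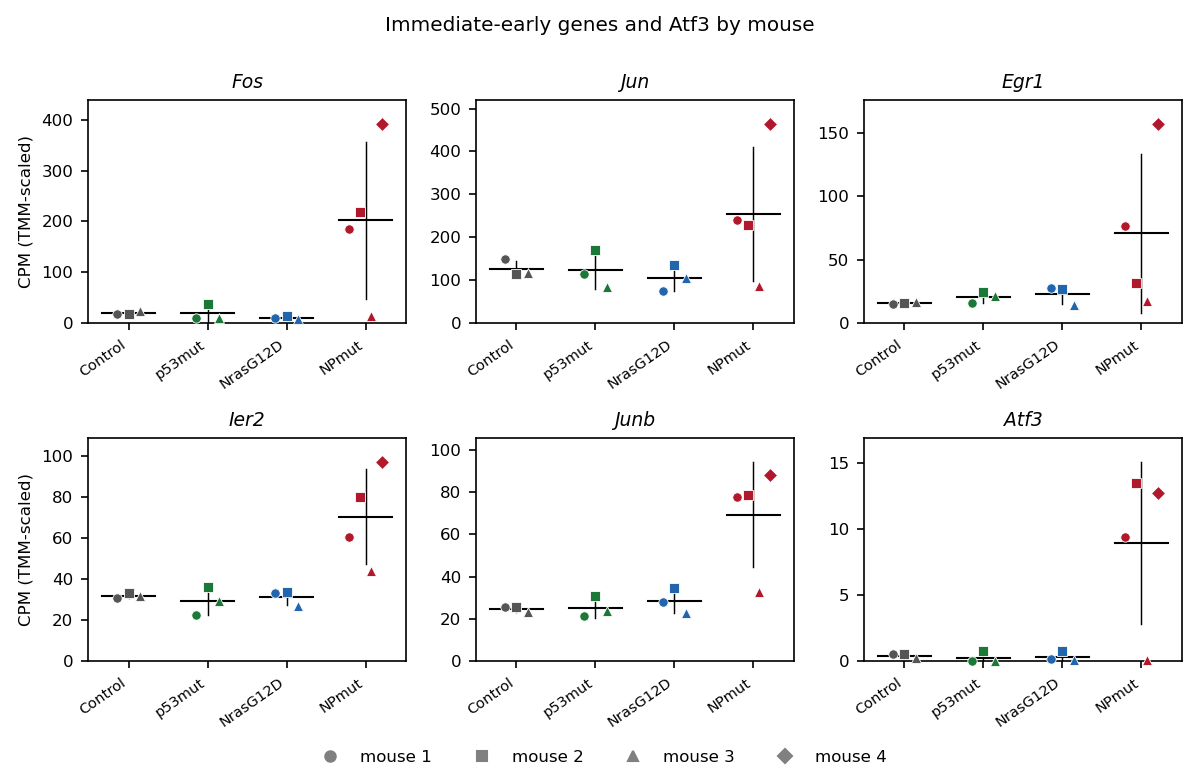
Level of 5 immediate-early genes and *Atf3* in TMM-scaled CPM (vertical axis, from 0) in every mouse, with group means, SD cut at 0 and symbols for the mouse number. NPmut mouse 3 (triangle) is the lowest NPmut mouse in each panel, at 14.6 CPM for *Fos* and 0.107 for *Atf3*.

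The lists were then set side by side in each mouse. The median log2 CPM difference of the 25 immediate-early genes from the control mean was 2.23, 1.33, 0.13 and 1.98 in NPmut mice 1 to 4. The same median over the 10 members, which moved in both directions, was -0.06, 0.32, -0.27 and -0.30. Over the 42 cytosolic chaperones it was -0.19, 0.28, -0.07 and -0.22. NPmut mouse 2 had the highest cytosolic median of the 13 mice, with 31 of 42 genes above the control mean, and NPmut mice 1 and 4 had the lowest. NPmut mouse 3 had the lowest immediate-early median of its group, with 15 of 25 genes above the control mean, beside 13 in each control mouse. In NPmut mouse 3, *Ier2*, *Junb*, *Maff*, *Dusp2* and *Egr1* were above every control mouse, whereas *Fos* and *Jun* were below every control mouse. *Ier2*, *Junb*, *Maff* and *Dusp2* had been named for the smallest adjusted *P* of their list over all NPmut mice, mouse 3 included. Summed *Hspa1a* and *Hspa1b* was lowest of the NPmut group in mouse 3 (0.804 CPM) and highest in mouse 2 (3.97 CPM). In p53mut mouse 2 both were raised, with an immediate-early median of 0.56, with 22 of 25 genes above the control mean, a member median of 0.40, with 9 of 10 above, and 43.9 CPM of summed *Hspa1a* and *Hspa1b*. Its ER list had a median of 0.29, with 36 of 38 genes above the control mean. In NPmut mouse 2 the ER list reached 0.53. *Atf4*, *Ddit3*, *Atf3* and *Fos* were each lower in NPmut mouse 3 than in the other 3 NPmut mice.

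**Figure D4:**
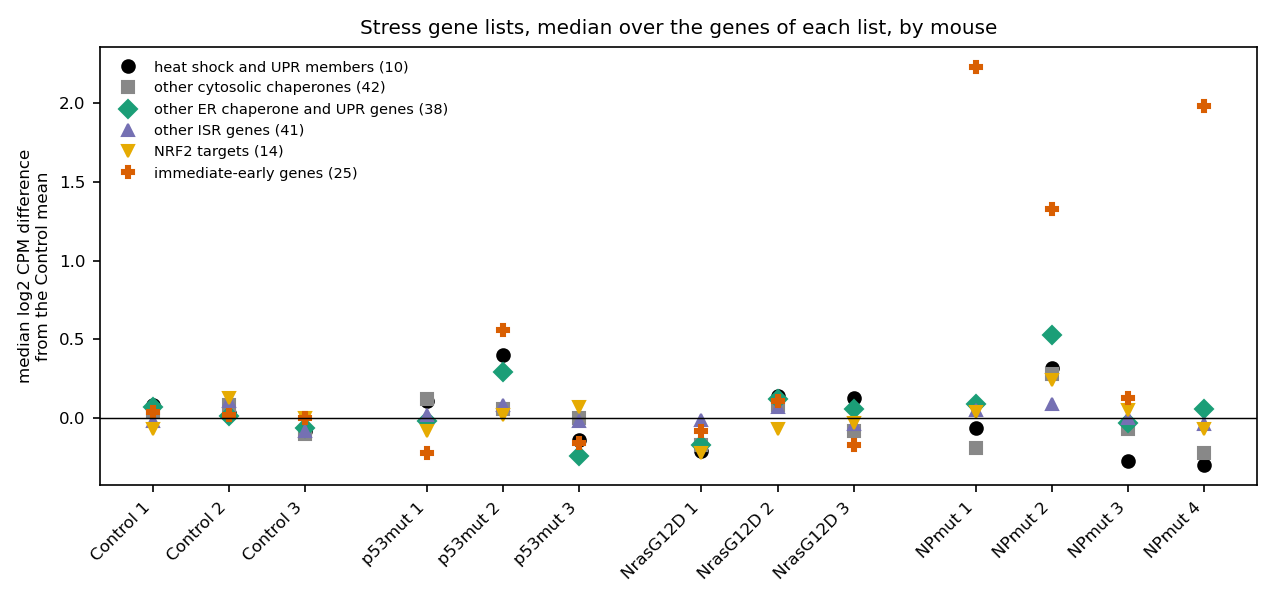
Median log2 CPM difference from the control mean (vertical axis) over the genes of each list, for each of the 13 mice (horizontal axis), with symbols for the lists and the number of genes in brackets. Immediate-early genes lie at 2.23, 1.33 and 1.98 in NPmut mice 1, 2 and 4 and at 0.13 in NPmut mouse 3, while the 10 heat shock and UPR genes lie between -0.30 and 0.40 in all 13 mice.

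The genes most like each member were taken as those with the highest Pearson correlation of log2 CPM over the 13 libraries among 9704 genes, as a description without a test, since they were picked as the highest and libraries share depth and group differences. For *Hspa5* they were *Dnajc3* (*r* = 0.962, Spearman's rho = 0.967), a BiP cochaperone, and *Hsp90b1* (*r* = 0.914, rho = 0.907), the ER HSP90. For *Hsp90aa1* they were *Stip1* (*r* = 0.95, rho = 0.962), the adaptor between HSP70 and HSP90, and *Hspd1* (*r* = 0.918, rho = 0.901), the mitochondrial HSP60. *Atf4* was closest to *Zfand2a* (*r* = 0.967, rho = 0.918), a heat and arsenite inducible gene, and to *Sowahc* (*r* = 0.955, rho = 0.885). *Ddit3* was closest to *Ndel1* (*r* = 0.929, rho = 0.94) and *Ccnl1* (*r* = 0.895, rho = 0.802). *Hsph1* was closest to *Synj2bp* (*r* = 0.955, rho = 0.929) and *Adgra3* (*r* = 0.953, rho = 0.951), neither of which is a chaperone. *Hspa8* was closest to *Ubqln1* (*r* = 0.895, rho = 0.923), a ubiquitin shuttle, and *Hsp90ab1* to *Ywhae* (*r* = 0.944, rho = 0.89), a 14-3-3 protein. The low *Hspa1a* and *Hspa1b* had weaker nearest genes, *Skp2* (*r* = 0.79, rho = 0.692) and *Ermp1* (*r* = 0.879, rho = 0.874), as did *Dnajb1* with *1700123O20Rik* (*r* = 0.837, rho = 0.813).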

How the data were processed

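The authors deposited raw read counts per gene for all 13 libraries in 1 table under Ensembl identifiers. The submitters' processing notes name STAR 2.6.1d, R 3.6.1, DESeq2 1.26.0 and GRCm38.p6, and the counting program and its use of strand are not given in the sources used here. Libraries were made with a stranded total RNA kit. Columns were matched to mice by the codes in the labels, and 0 columns were left without a sample. Names, coordinates and exonic lengths came from GENCODE M21, in which 29 identifiers with 0.0032% of the counts were not found. The symbol *Ddit3* has a second identifier without counts, which was not used.

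The test was run with edgeR 4.0.16 (R 4.3.3). A quasi-likelihood model with robust estimation, TMM scaling and a mean per group was fitted to all 13 libraries for 17795 genes kept by filterByExpr, and *P* values were adjusted by Benjamini-Hochberg over all of them. CPM used TMM-scaled library sizes, and log2 CPM a prior count of 2. The fit was tested on simulated data. The labels do not say whether mice of a group were littermates, and *P* values measure the spread between these mice.

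The members and the gene lists were chosen with earlier results of these data known. The genes named are all members, up to 4 called genes per direction and list with the smallest adjusted *P*, *Fos*, *Jun*, *Egr1* and *Ier2*, the stress sensors, HSPC markers, and the 2 genes most like each member among genes whose mean log2 CPM reached 3, of which the closest is printed for every member. *Selenos* was named to complete its list's calls, *Myc* for its interaction, *Hspa4* as a relative of *Hsph1* and *Hspa4l*, and *Ighm* and *Igkc* as the plasma cell markers called. *Atf3* was followed by mouse after its values were seen. Replicate numbers come from the labels, which tie them to no litter or batch. Deviations from the group means correlated at 0.152 to 0.166 between control and p53mut mice of the same number, over 0.1 in all 3 pairs, and not in all pairs of any other 2 groups. Single pairs of other groups were higher, such as 0.294 for NrasG12D and NPmut mouse 2, so the block was only an alternative. Alternatives were other scalings and filters, DESeq2 1.42.0, fits to the compared groups alone, a block for the replicate number, a covariate for background reads, summed *Hspa1a* and *Hspa1b*, and leaving out each mouse.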

Additional observations from a re-analysis of the deposited data

Results flagged for a closer look

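Among 48 members and named genes screened in the NPmut group, a mouse stood apart from the others on the log2 CPM scale for 3, and chance alone flags about 1 in 20 groups. For *Atf3* the gap between NPmut mouse 3, the lowest, and the next mouse was 0.912 of the group's whole range. For *Junb* that gap, again below the next mouse for NPmut mouse 3, was 0.871 of the range. For *Dnajb6* NPmut mouse 4 was the highest, and the gap was 0.861 of the range.

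The interaction term, a test of whether the double mutant departs from the sum of the single-mutant differences, was read for 10 members and the 160 genes tested in the 5 stress lists. Among these the term was past an adjusted *P* of 0.05 in edgeR's fit for 5 genes, beside 1.74% of all genes. It was -1.71 for *Hsph1* (SE 0.369, adjusted *P* = 0.0376), -0.89 for *Hspa4l* (SE 0.18, adjusted *P* = 0.0264), -0.86 for *Eif2ak2* (SE 0.18, adjusted *P* = 0.0313), -0.77 for *Myc* (SE 0.154, adjusted *P* = 0.0247) and 1.34 for *Gsr* (SE 0.302, adjusted *P* = 0.0417), all on the log2 scale. *Hsph1* and *Hspa4l*, both of the HSP110 family, were lower in every NPmut mouse than in every other mouse. *Hspa4*, another gene of that family in the cytosolic list, was called neither in any comparison of groups nor for the interaction. *Myc*, of the immediate-early list, was at 378 to 414 CPM in control mice, 429 to 471 in p53mut mice, 494 to 559 in NrasG12D mice and 311 to 399.7 in NPmut mice.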

How the results depend on the processing

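Across all alternatives, 947 results stayed the same. For a value this meant its direction and its side of the threshold, and for a count a move of at most 1.5 times. Of the rest, 110 values lost a call, 12 gained a call, 53 counts moved by over 1.5 times and 9 values changed sign. The count of members called in NPmut versus control mice was 4 by DESeq2, 0 with background reads as a covariate and 1 to 3 when leaving out each mouse (1 without control mouse 1 or 3). In p53mut versus control mice it was 1 with the replicate number as a block in those libraries alone, and 0 when leaving out each mouse. For the interaction it was 2 by DESeq2, 2 without a filter on low counts, 0 with a replicate block, 0 with the covariate and 0 to 2 when leaving out each mouse. In NPmut versus NrasG12D mice it was 1 in the fit to those groups and 1 to 3 when leaving out each mouse (1 without NrasG12D mouse 2 or 3). In NPmut versus p53mut mice it was 1 in the fit to those groups, 0 with the covariate and 1 to 3 when leaving out each mouse (1 without p53mut mouse 1). In NPmut versus control mice the cytosolic chaperone count was 5 with library totals, 1 with the covariate and 1 to 4 when leaving out each mouse (1 without control mouse 1 or 3). The ER count was 2 with library totals, 10 without a filter, 2 in the fit to those groups, 2 with the covariate and 0 to 7 when leaving out each mouse. The ISR count was 3 in the fit to those groups, 3 with the covariate and 2 to 8 when leaving out each mouse. The immediate-early count was 9 without a filter, 8 with the replicate block, 0 with the covariate and 4 to 21 when leaving out each mouse. The NRF2 count was 1 with the covariate and 2 to 5 when leaving out each mouse (2 without control mouse 3). The block changed no other of these counts by over 1.5 times. Signs turned in NPmut versus control mice for *Hspa1a* (0.20), *Hspa5* (0.42) and *Ddit3* (-0.24) with the covariate, for *Hspa8* without NPmut mouse 2 (-0.04 to 0.23 when leaving out each mouse) and for *Hspa5* without NPmut mouse 4 (-0.20 to 0.00). In p53mut versus control mice they turned for *Hspa1a* (-0.35) and *Hspa1b* (-0.34) with the block in those libraries alone and without p53mut mouse 2 (-1.53 to 1.31 and -1.33 to 1.14 when leaving out each mouse). The cause of these changes was not tested. Library totals moved the median of all genes in NPmut versus control mice from 0.01 to -0.11. Over all genes, NPmut versus control calls numbered 1944 (10.9%), against 2676 (15%) by DESeq2. They numbered 933 (5.45%) in the fit to those groups and 746 (4.19%) with the covariate. Leaving out each mouse gave 4.41% to 12.3%, library totals 11.2%, no filter 6.33% and the block 15.5%. The interaction share was 5.14% by DESeq2, 2.08% without a filter, 2.97% with the block and 1.83% with the covariate. In NPmut mice the fit to those groups gave 3.85% against NrasG12D mice and 3.91% against p53mut mice. Summed *Hspa1a* and *Hspa1b* had 6 to 595 counts per library, so that counting error is large in the lowest libraries.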

Other observations

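Of 14 targets of NRF2, the factor of the oxidative stress response, 1 rose and 3 fell in NPmut versus control HSPCs, 28.6% of the list beside 10.9% of all genes, with a median log2 fold change of 0.04. *Gsr*, glutathione reductase, rose (0.89, SE 0.209, adjusted *P* = 0.0143), from 203, 244 and 190.4 CPM in control mice to 319, 511, 305 and 443 in NPmut mice. *Nqo1*, a quinone reductase and a standard NRF2 reporter, fell (-1.77, SE 0.332, adjusted *P* = 0.00399), from 4.66, 4.82 and 5.15 CPM to 1.06, 0.694, 2.2 and 1.87. *Gclm*, the modifier subunit of the glutathione synthesis enzyme, fell (-0.86, SE 0.161, adjusted *P* = 0.00399). *Srxn1*, sulfiredoxin, fell (-1.12, SE 0.252, adjusted *P* = 0.0114). In NrasG12D versus control mice the values were -0.56 for *Nqo1*, -0.22 for *Gclm*, -0.61 for *Srxn1* and -0.32 for *Gsr*, none of them called. Against NrasG12D mice, *Nqo1* (-1.21, adjusted *P* = 0.0364), *Gclm* (-0.64, adjusted *P* = 0.023) and *Gsr* (1.21, adjusted *P* = 0.0037) were called in NPmut mice. *Srxn1* was not (-0.50, adjusted *P* = 0.246). For each of these 4 called genes all NPmut mice lay on the same side of all control mice, NPmut mouse 3 included. The genes were named because they were called in this comparison, so the lack of overlap is no separate result. Of all genes, 10.4% had all NPmut mice above and 11.5% all NPmut mice below the control mice.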
